A study of Homo sapiens with 24 samples.

Results

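The nuclear-encoded subunits of the mitochondrial respiratory chain were examined as a group in nascent transcription data from T47D cells, a luminal, estrogen receptor-positive breast cancer line. The members were the protein-coding genes whose symbols begin with NDUFA, NDUFB, NDUFC, NDUFS, NDUFV, UQCR, ATP5F1, ATP5M or ATP5P, the COX genes numbered from 4 to 8, SDHA, SDHB, SDHC, SDHD and CYC1, with the NDUFAF assembly factors left out. This rule used names only and no measured value. It gave 90 of the 60605 genes in the count table, and 83 of them were among the 22326 genes with enough reads to be tested.

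The respiratory chain sits in the inner mitochondrial membrane. Complexes I and II pass electrons from NADH and succinate to ubiquinone, complex III passes them on to cytochrome c, and complex IV hands them to oxygen. Complexes I, III and IV pump protons, and complex V, the ATP synthase, uses the proton gradient to make ATP. Most subunits are encoded in the nucleus, while the mitochondrial genome encodes core subunits of complexes I, III, IV and V, so the 2 genomes supply the same machines. The nuclear genes are transcribed in nearly every cell type, and the factors NRF1, GABP, YY1 and the estrogen-related receptors, with the PGC-1 coactivators, are known regulators of them.

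Precision run-on sequencing (PRO-seq), which maps engaged RNA polymerase and so reads transcription rather than RNA abundance, was performed in Clones 28, 35 and 39. Each is a single clone in which the TRPS1 protein carries an FKBP degron and 2xHA tag at its native locus (dTAG-TRPS1). All 3 come from a parental clone that had been through puromycin selection, and the TRPS1 copies without the tag are disrupted, so that the tagged protein is the only TRPS1 made. Cells of each clone received 0.1% DMSO or 100 nM dTAG-13, which targets the tagged protein for degradation, for 90 minutes, with 4 replicates in each of the 6 groups and 24 libraries in all. The replicates of a clone were dishes treated and collected at different times of a single day, the DMSO and dTAG-13 dishes of a replicate number were collected together, and which number came earlier is not given in the sources used here. The p-values therefore measure the spread between dishes of these clones and not between independent lines. In bulk libraries, a change in every cell and a larger change in some of the cells cannot be told apart.

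The libraries held between 3226718 and 9575803 counts in genes (median 5042122), of which the members took between 0.355% and 0.402%. Luminal markers were high in every library, with the summed level of 9 genes between 3949 and 6248 CPM (counts scaled to each library's total after TMM normalization) and ESR1, the estrogen receptor gene, at a median of 1598 CPM. The summed level of 5 basal markers lay between 15.96 and 28.1 CPM, with the median of KRT5 at 0, and those of 4 mesenchymal, 3 immune and 2 endothelial markers reached at most 17.8, 23.2 and 7.60 CPM. Because dTAG-13 acts on the protein, transcription of TRPS1 does not check its loss. TRPS1 lay between 5183 and 9296 CPM and was higher in dTAG-13 than in DMSO in 12 of 12 pairs, by a log2 fold change of 0.19 that did not pass the test without the replicate block (adjusted p = 0.733, edgeR's quasi-likelihood test) and did pass with it (0.20, adjusted p = 6.65e-04).

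Promoter sequences came from RefSeq on GRCh38.p14, in windows of 250 bases before to 50 bases after each start. Of the 90 members, 70 matched and gave 83 windows, since some genes have several starts. Motifs were searched on both strands. The NRF1 motif, GCGCA and GCGC with any base between them, was in 17 of the 83 windows (20.5%), beside 7.39% of 21613 windows of protein-coding genes and 5.78% of all 35116 windows. The ETS motif CCGGAAG, which GABP binds, was in 22 (26.5%, beside 12.9% and 10.3%), and the YY1 motif AAGATGGCG in 10 (12.05%, beside 2.45% and 1.75%). The Sp1 motif GGGCGG was in 51 (61.4%, beside 56.8% and 45.0%), and the estrogen-related receptor motif TCAAGGTCA in 1 (1.205%, beside 0.241% and 0.353%). AGATAA, a form of the motif of GATA factors, to which family TRPS1 belongs, was in 7 (8.43%, beside 7.83% and 10.3%), and TATAAA in 7 (8.43%, beside 9.45% and 11.5%). The share of windows with the GATA form was thus close to that of protein-coding genes, while those with the NRF1, ETS and YY1 forms were larger. The ETS and YY1 forms can share the letters AAG where they adjoin. A match is a description of letters and does not show that a factor binds there.

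The stretches directly before the start are shown for 4 complex I genes on which the results below turn, NDUFB4 and NDUFS6 for the differences between clones and NDUFA8 and NDUFB7 for those between replicate numbers, with bases inside annotated genes left out. Capitals mark an NRF1 motif in NDUFB4, 63 to 54 bases before its RefSeq start, and an ETS motif in NDUFB7, 24 to 18 bases before its own. The RefSeq start of NDUFB4 lies a few bases inside the annotated gene, so its stretch ends before that start and the motif stands closer to the printed end. NDUFS6 and NDUFA8 had none of the NRF1, ETS, YY1, estrogen-related receptor or Sp1 motifs in the bases shown. Over their whole windows, NDUFB4 held 3 NRF1 motifs and NDUFA8 held 2, and NDUFA8, NDUFS6 and NDUFB7 each held 1 Sp1 motif. NDUFB4 lies at chr3:120596236-120596327 on the plus strand, NDUFS6 at chr5:1801367-1801406 on the plus strand, NDUFA8 at chr9:122159780-122159879 on the minus strand and NDUFB7 at chr19:14572067-14572166 on the minus strand (GRCh38.p14, upstream of the first exon).
NDUFB4: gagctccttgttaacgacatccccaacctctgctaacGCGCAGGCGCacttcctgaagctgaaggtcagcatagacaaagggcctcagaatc
NDUFS6: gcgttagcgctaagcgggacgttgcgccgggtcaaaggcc
NDUFA8: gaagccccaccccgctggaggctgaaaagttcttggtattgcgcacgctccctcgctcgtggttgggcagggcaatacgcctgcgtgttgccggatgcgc
NDUFB7: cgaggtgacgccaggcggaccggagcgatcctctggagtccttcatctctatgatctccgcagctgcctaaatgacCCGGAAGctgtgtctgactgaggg

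The 40 bases shown for NDUFS6 are the whole gap to MRPL36, a mitochondrial ribosome gene read in the opposite direction. Such head-to-head pairs were common among the members. A protein-coding partner starting within 1000 bases on the other strand was annotated for 31 of 90 members (34.4%), beside 2681 of 20046 protein-coding genes (13.4%). Other pairs were NDUFB5 with MRPL47, also of the mitochondrial ribosome, and SDHD, a membrane anchor of complex II, with TIMM8B, a chaperone of mitochondrial import.

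The members were short and actively transcribed. Their annotated spans had a median of 12.6 kb, against 37.9 kb over the 14905 protein-coding genes tested, and their mean level per kb of span over the 24 libraries had a median of 2.93 CPM per kb, against 1.05. The medians of the complexes were close to each other on that scale, at 2.50 for the 38 tested genes of complex I, 2.04 for the 4 of complex II, 3.03 for the 9 of complex III, 3.44 for the 14 of complex IV and 3.32 for the 18 of complex V, as the plot of levels by complex shows. Within a complex the levels ranged much more widely, from 0.430 (NDUFA9) to 13.9 CPM per kb (NDUFB10) among complex I subunits. COX7C of complex IV, at 13.6, and ATP5F1E of complex V, at 13.4, were the next highest of all, and the lowest were COX7B2, at 0.027, and COX7A2L, which helps join complexes III and IV, at 0.394. The annotated span of COX7A2L, 91.5 kb, begins upstream of its RefSeq starts, so its low level per kb depends on the span taken. Polymerase density per kb of span is not the amount of mRNA, and genes of different span carry different shares of promoter-proximal signal.

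**Figure D1:**
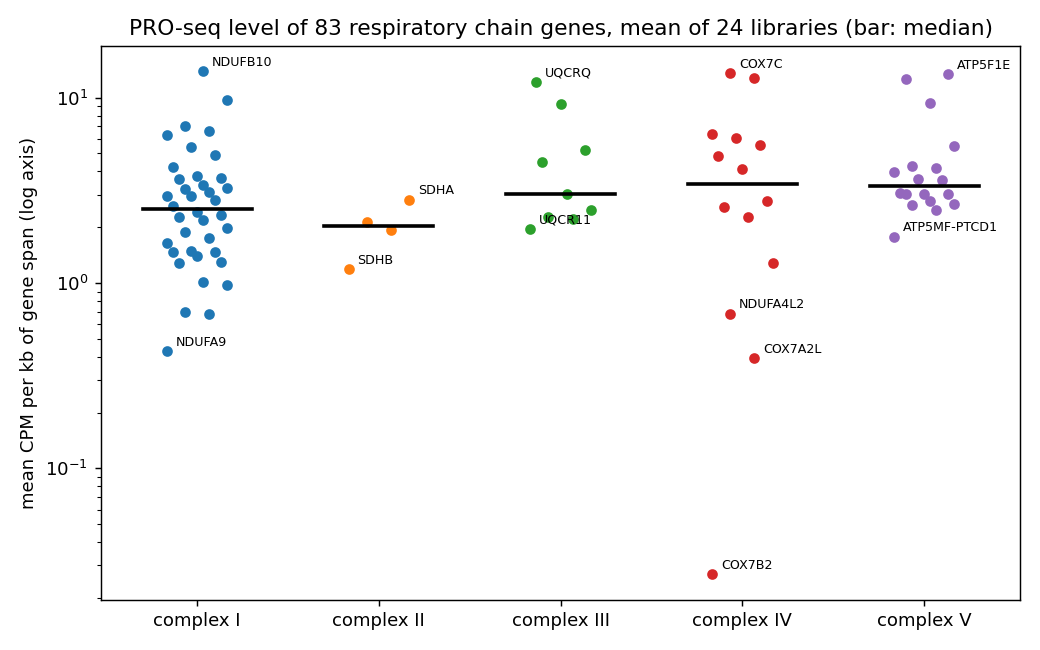
Mean transcription of the 83 tested respiratory chain genes over 24 libraries, in CPM per kb of annotated gene span on a log axis, by complex, where each point is a gene and bars are medians. Medians lie between 2.04 and 3.44 CPM per kb, and COX7B2 stands far below all others, at 0.027.

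The genes of the catalytic cores were all transcribed. In complex I, NDUFV1, which carries the FMN that takes electrons from NADH, was at 3.62 CPM per kb and NDUFS1, an iron-sulfur core subunit, at 1.47. CYC1, cytochrome c1 of complex III, was at 9.21 CPM per kb, the Rieske protein gene UQCRFS1 at 2.49 and the core protein gene UQCRC1 at 2.22. In the ATP synthase the catalytic beta subunit gene ATP5F1B was at 9.36 CPM per kb and the alpha subunit gene ATP5F1A at 3.04, although the enzyme holds both proteins in equal numbers. SDHA, the flavoprotein of complex II, was at 2.82 CPM per kb, but it is uncertain, since its 4 named pseudogene copies held 76124 counts against its own 13562.

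Where a subunit has isoforms, the broadly used form had the higher level per kb. COX4I1 was at 6.37, COX6A1 at 6.04, COX6B1 at 2.57, COX7A2 at 4.12, COX7B at 2.26 and COX8A at 12.8 CPM per kb. Their tissue-restricted counterparts COX6A2, COX7A1, COX8C, COX4I2 and COX6B2 had 0, 1, 5, 11 and 64 counts in all 24 libraries together and did not pass the filter on low counts. UQCRHL and ATP5MGL, copies of UQCRH and ATP5MG, did not pass it either, with 137 and 143 counts. COX7B2, a testis form of COX7B, passed the filter at 0.027 CPM per kb over a long span, with 562 counts in all libraries against 2245 for COX7B. NDUFA4, now counted as a complex IV subunit although its name places it in complex I, was at 5.54 CPM per kb and its hypoxia-induced relative NDUFA4L2 at 0.683. The 3 genes ATP5MC1, ATP5MC2 and ATP5MC3 encode the same mature c subunit of the ATP synthase ring and were at 5.47, 3.02 and 4.26 CPM per kb.

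The first comparison asked whether 90 minutes of TRPS1 degradation changed transcription of these genes. No member passed the threshold of an adjusted p under 0.1 with the 3 clones together, while 123 of 22326 genes (0.551%) did when p-values of edgeR's quasi-likelihood test were adjusted by Benjamini-Hochberg. DESeq2 also called 0 members. By edgeR's quasi-likelihood test 2 of 83 had an unadjusted p under 0.05, as did 1411 of all genes. With the replicate block, which for treatment fits each pair of clone and replicate number, 521 genes (2.33%) passed the threshold, again with 0 members. The log2 fold changes of dTAG-13 over DMSO had a median of -0.0045 over the members and -0.0018 over all genes tested, and 38 of 83 were above 0. They ran from -0.12 for NDUFA13 to 0.20 for COX7B2, and for 76 of 83 members the whole 95% interval lay within 0.25 of 0 on the log2 scale. These values and intervals come from the fit without the replicate block, so spread between replicate numbers enters the intervals.

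By complex, the changes were above 0 for 20 of 38 genes in complex I, 2 of 4 in complex II, 4 of 9 in complex III, 5 of 14 in complex IV and 7 of 18 in complex V. Core subunits lay near 0. NDUFS1 was at 0.02 on the log2 scale, NDUFV1 at 0.00, SDHA at -0.02, UQCRFS1 at 0.03, UQCRC1 at -0.04, CYC1 at -0.08, COX4I1 at -0.01, COX5A at -0.07, ATP5F1A at 0.00 and ATP5F1B at -0.08, and none passed the test. The member with the smallest p was NDUFB4, an accessory subunit of the membrane arm of complex I, at 0.16 (SE 0.052, adjusted p = 0.283, edgeR's quasi-likelihood test). Its level was above that in DMSO in 9 of 12 pairs. COX6B1, a complex IV subunit facing the intermembrane space, was at 0.10, and ATP5PO, the stalk subunit OSCP, at 0.07 with dTAG-13 higher in 10 of 12 pairs. On the other side were NDUFA13, an accessory subunit of complex I, at -0.12 (SE 0.058, adjusted p = 0.763, edgeR's quasi-likelihood test), lower in 9 of 12 pairs, ATP5MK at -0.11 and NDUFAB1, the mitochondrial acyl carrier protein, at -0.08.

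**Figure D2:**
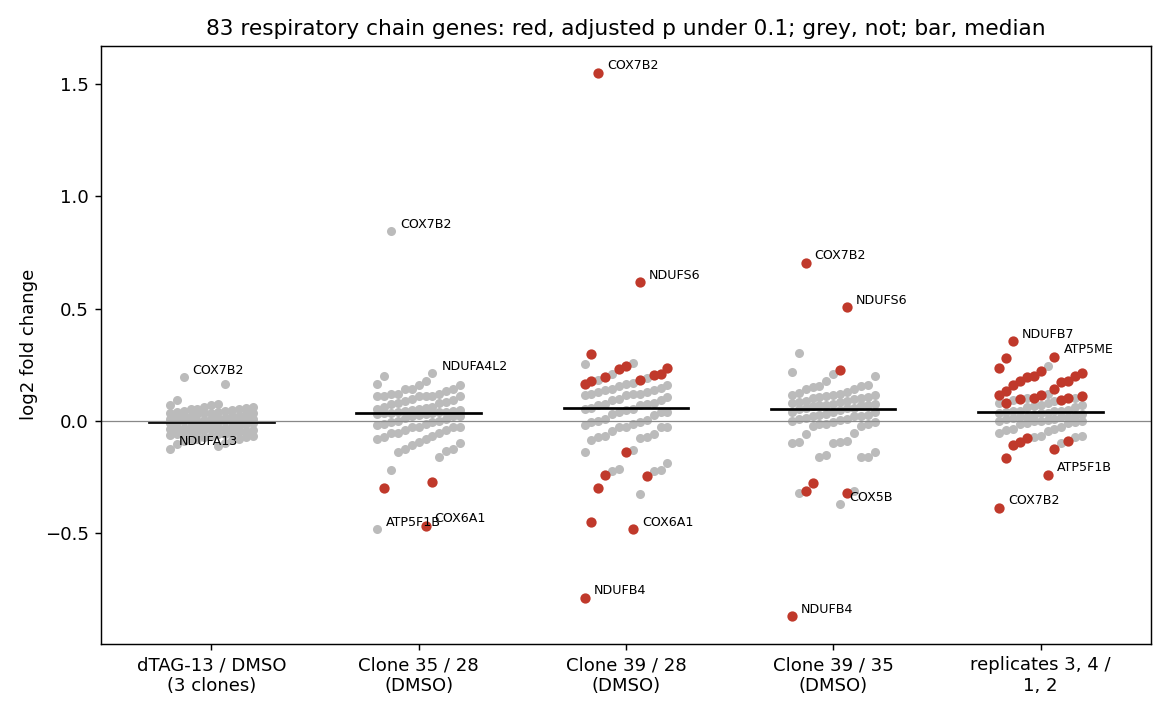
Log2 fold changes of the 83 tested members for treatment, for pairs of clones in DMSO and for replicates 3 and 4 against 1 and 2, where each point is a gene, red points passed an adjusted p of 0.1 and bars are medians. The treatment values gather around 0 with no red point, while Clone 39 against Clone 28 has 19 and the replicate numbers have 31.

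Within single clones 0 members were called, beside 12 genes of the whole table in Clone 28 (0.0537%) and 0 in Clones 35 and 39 (0% each). Unadjusted p-values under 0.05 were found for 2, 1 and 5 members, respectively, and for 1078, 646 and 754 of the 22326 genes. The difference of the treatment effect between clones was called for 0 members and 0 genes (0%), with 3 members and 407 genes at an unadjusted p under 0.05. In Clone 28 SDHC, a membrane anchor of complex II, was at 0.13, ATP5PF at 0.15, UQCR11 of complex III at 0.21, NDUFC2 at -0.15 and ATP5F1B at -0.30. The value of ATP5F1B was -0.11 without DMSO replicate 1 of that clone. In Clone 35 ATP5MC3 was at 0.23, UQCRH, the hinge protein of complex III, at 0.18, ATP5PO at 0.13, COX8A at -0.21, NDUFA11 at -0.14 and NDUFAB1 at -0.13. In Clone 39 COX7A2L was at 0.25, NDUFA12 at 0.16, UQCRQ at -0.19, ATP5F1A at -0.16 and NDUFB5 at -0.13. None of these passed the test.

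NDUFB4 in Clone 39 was the largest of these values among the genes shown. Its 4 DMSO libraries were at 22.9, 24.2, 26.7 and 23.6 CPM and its 4 dTAG-13 libraries at 31.1, 29.6, 35.9 and 31.2 CPM. The groups did not overlap, but the log2 fold change of 0.39 (SE 0.091) had an adjusted p of 1 by edgeR's quasi-likelihood test, and of 0.142 with the replicate block. In Clones 28 and 35 the means were 41.8 ± 2.004 and 44.2 ± 4.07 CPM in DMSO and 44.3 ± 2.18 and 46.9 ± 2.67 CPM in dTAG-13 (SD, n = 4). Of its 7 tested neighbours within 500 kb 0 were called, with values from -0.16 to 0.33. The difference between the clones in this response had an unadjusted p of 0.0223 and an adjusted p of 1.

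The 13 protein-coding genes of the mitochondrial genome, which are transcribed by a separate polymerase, were above 0 for 12 of 13 in the 3 clones together, with a median log2 fold change of 0.06 and 0 called. By clone their medians were -0.13 in Clone 28, 0.15 in Clone 35 and 0.14 in Clone 39. MT-ND1 was at 0.13 (adjusted p = 0.824, edgeR's quasi-likelihood test). These genes lie on the same 2 transcripts and are not separate measurements. The lists of assembly factors, mobile electron carriers, transcriptional regulators, tricarboxylic acid cycle enzymes and ribosomal proteins also had 0 genes called for treatment.

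The clones were then compared with each other in DMSO, which gives the transcription of these genes before any degradation. Each clone is 1 line, so a difference is between these lines. Clones 28 and 35 were close. Of the 83 members 3 were lower in Clone 35 and 0 higher (3.61%), beside 5.25% of all genes, of which 2.24% were higher and 3.01% lower, and the median log2 fold change was 0.03 over the members and 0.01 over all genes. With the replicate block 5 members passed (1 higher, 4 lower), beside 11.9% of all genes.

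ATP5MC2, a c subunit gene, was at 148, 143, 148 and 153 CPM in Clone 28 and 124, 122, 126 and 119 CPM in Clone 35. The groups did not overlap, and the log2 fold change was -0.27 (SE 0.056, adjusted p = 0.0025, edgeR's quasi-likelihood test). NDUFA12, an accessory subunit of the peripheral arm of complex I, was at 87.5, 82.3, 82.8 and 88.6 CPM in Clone 28 and 69.1, 68.5, 65.1 and 74.7 CPM in Clone 35, again without overlap (-0.30, SE 0.066). COX6A1, a regulatory subunit of complex IV, was called at -0.47 (adjusted p = 0.0798, edgeR's quasi-likelihood test), but the call was lost without any of replicates 3 and 4 of Clone 28 or 1 and 2 of Clone 35, with an adjusted p of up to 0.449. Its libraries in Clone 28 were at 15.7, 15.9, 29.0 and 19.6 CPM, with replicate 3 well above the others. COX7B2 at 0.84 and ATP5F1B at -0.48 missed the threshold (adjusted p = 0.130 and 0.140, edgeR's quasi-likelihood test) and passed it with the replicate block (0.0228 and 0.0672). Without DMSO replicate 1 of Clone 28, where ATP5F1B was at 124.8 CPM against 76.5 to 81.7 CPM in the others, its value without the block was -0.29 (adjusted p = 0.393, edgeR's quasi-likelihood test).

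Clone 39 differed from Clone 28 in more members. Of the 83 members 12 were higher and 7 lower (22.9%), beside 26.7% of all genes, of which 12.4% were higher and 14.3% lower, so the share of members called was not above that of genes in general. The median log2 fold change was 0.06 over the members and 0.00 over all genes, and 53 of 83 members were above 0. Calls fell in every complex, with 4 higher and 3 lower in complex I, 1 and 0 in complex II, 2 and 0 in complex III, 2 and 2 in complex IV and 3 and 2 in complex V.

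NDUFB4 and NDUFS6, both accessory subunits of complex I, moved in opposite directions. NDUFB4 (ENSG00000065518) was at 40.8, 41.3, 40.4 and 44.8 CPM in the DMSO libraries of Clone 28, at 39.1, 48.9, 43.5 and 45.3 CPM in Clone 35 and at 22.9, 24.2, 26.7 and 23.6 CPM in Clone 39. Clone 39 lay below every library of the other clones, with a log2 fold change of -0.79 (SE 0.087, adjusted p = 1.22e-08) against Clone 28 and -0.87 (SE 0.085, adjusted p = 1.08e-09) against Clone 35 by edgeR's quasi-likelihood test. NDUFS6 (ENSG00000145494), a zinc-binding subunit of the peripheral arm, was at 36.0, 34.6, 40.4 and 34.2 CPM in Clone 28, at 40.3, 39.1, 38.4 and 39.3 CPM in Clone 35 and at 55.3, 53.0, 54.0 and 60.1 CPM in Clone 39. There Clone 39 lay above all the others, with 0.62 (SE 0.080) against Clone 28 and 0.51 (SE 0.078) against Clone 35.

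**Figure D3:**
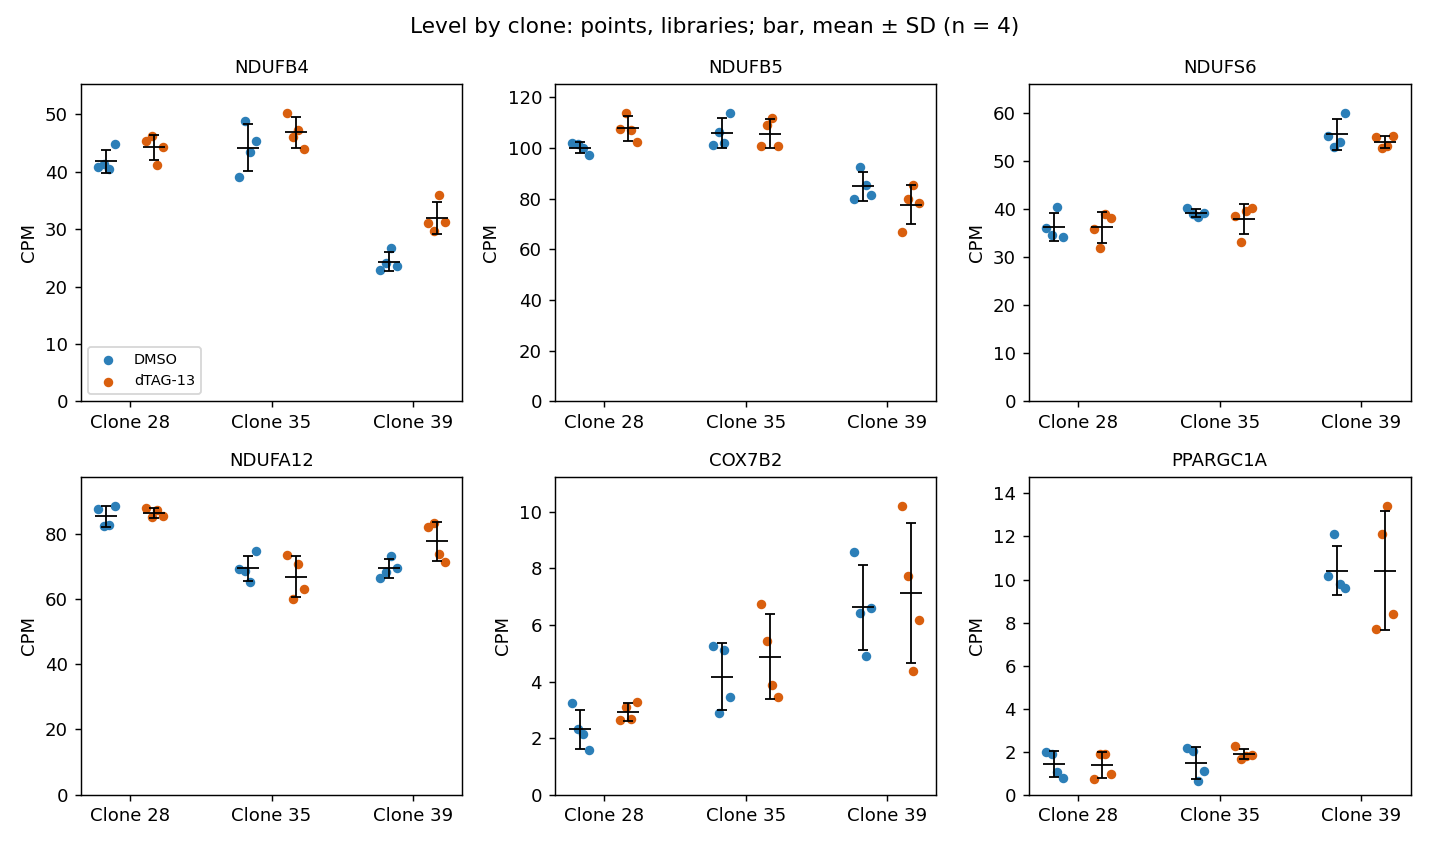
Transcription in CPM of 5 members and of PPARGC1A, a regulator described further on, by clone in DMSO (blue) and dTAG-13 (orange), where points are libraries and bars are means ± SD (n = 4). In DMSO, NDUFB4 lies lower and NDUFS6 and PPARGC1A higher in Clone 39 than in every library of Clones 28 and 35.

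Other complex I genes called in Clone 39 against Clone 28 were NDUFA12 at -0.30, NDUFB5, of the distal membrane arm, at -0.24, NDUFB9 at 0.20, NDUFS4, an accessory subunit of the peripheral arm, at 0.18, and NDUFB8 at 0.30. SDHC was at 0.18. In complex III the core protein gene UQCRC2 was at 0.24 and UQCRB at 0.25. In complex IV COX7B2 was at 1.55 (SE 0.288), rising from a mean of 2.31 ± 0.688 to 6.63 ± 1.51 CPM (SD, n = 4). NDUFA4 was at 0.23, COX6A1 at -0.48 and COX5B at -0.45. In complex V ATP5PF, coupling factor 6, was at 0.21, ATP5F1A at 0.16 and the peripheral stalk gene ATP5PB at 0.20, while the gamma subunit gene ATP5F1C was at -0.25 and ATP5MC2 at -0.14.

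Of these 19 calls 10 were lost on leaving out a single library. NDUFB9 and UQCRB lost theirs without Clone 39 replicate 1 (adjusted p = 0.155 and 0.100 by edgeR's quasi-likelihood test) and COX6A1 without Clone 28 replicate 3 (0.244), all in DMSO. NDUFS4 was lost without Clone 28 replicate 3 or 4 or Clone 39 replicate 1 or 2, NDUFB8 without Clone 28 replicate 1 or 2 or Clone 39 replicate 2 or 3, and COX5B without Clone 28 replicate 3 or 4 or Clone 39 replicate 1 or 3, with adjusted p up to 0.276, 0.243 and 0.243. NDUFA4 was lost without Clone 28 replicate 1, 3 or 4 or Clone 39 replicate 1 or 3, and ATP5MC2 without Clone 28 replicate 1, 3 or 4 or Clone 39 replicate 3 or 4, up to 0.331 and 0.155. ATP5F1A and ATP5PB lost theirs without any of 17 and 20 of the 24 libraries, up to 0.208 and 0.349.

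Against Clone 35, Clone 39 had 3 members higher and 4 lower (8.43%), beside 22.6% of all genes, of which 9.64% were higher and 12.9% lower. With the replicate block 12 members passed (7 higher, 5 lower), beside 30.5% of all genes. NDUFB5 was at 101, 106, 102 and 114 CPM in Clone 35 and 80.0, 92.7, 85.6 and 81.5 CPM in Clone 39, without overlap (-0.32, SE 0.066). ATP5F1C was at -0.31, ATP5F1A at 0.23, COX7B2 at 0.70 and NDUFA2, an accessory subunit of complex I, at -0.28. The call of COX7B2 was lost without Clone 35 replicate 2 or 4 or Clone 39 replicate 1 and that of NDUFA2 without Clone 35 replicate 3 or 4 or Clone 39 replicate 1 or 2, all in DMSO, with adjusted p up to 0.205 and 0.207 by edgeR's quasi-likelihood test. The 2 comparisons of Clone 39 share its DMSO libraries, so their values are not independent.

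Genes beside the members often differed in the same direction. NDUFB4 lies on chromosome 3 at 120596328 to 120602507 (hg38), and of the 7 protein-coding genes tested within 500 kb of it 5 were lower in Clone 39 than in Clone 28, with log2 fold changes from -0.83 to -0.19 and a median of -0.57. Against Clone 35 all 7 were lower, from -0.96 to -0.49. For NDUFB5, on the same chromosome, 9 of 10 neighbours were lower with a median of -0.33, for COX6A1 on chromosome 12 it was 12 of 19 with a median of -0.25, and for ATP5F1C on chromosome 10 it was 4 of 5 with a median of -0.30. Of the 5 neighbours of NDUFS6 on chromosome 5, 2 were higher with a median of 0.50, MRPL36 among them.

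Over the called members with at least 3 neighbours, the median of the neighbours had the sign of the member for 3 of 3 in Clone 35 against Clone 28, 14 of 17 in Clone 39 against Clone 28 and 6 of 6 in Clone 39 against Clone 35. The plot of neighbours by distance shows 6 of these members. The exceptions in Clone 39 against Clone 28 were UQCRB on chromosome 8, ATP5F1A and ATP5PF. Their log2 fold changes were 0.25, 0.16 and 0.21, with neighbour medians of -0.59, -0.11 and -0.13. Some medians with the sign of the member were close to 0, at 0.01 for NDUFB8 and SDHC and 0.04 for NDUFS4. NDUFA12 had 0 of 5 neighbours called. The same count was not made for other genes. Neighbouring genes and the comparisons share libraries, so the points are not independent and carry no test. DNA copy number was not measured in these libraries, and its part in the clone differences was not tested.

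**Figure D4:**
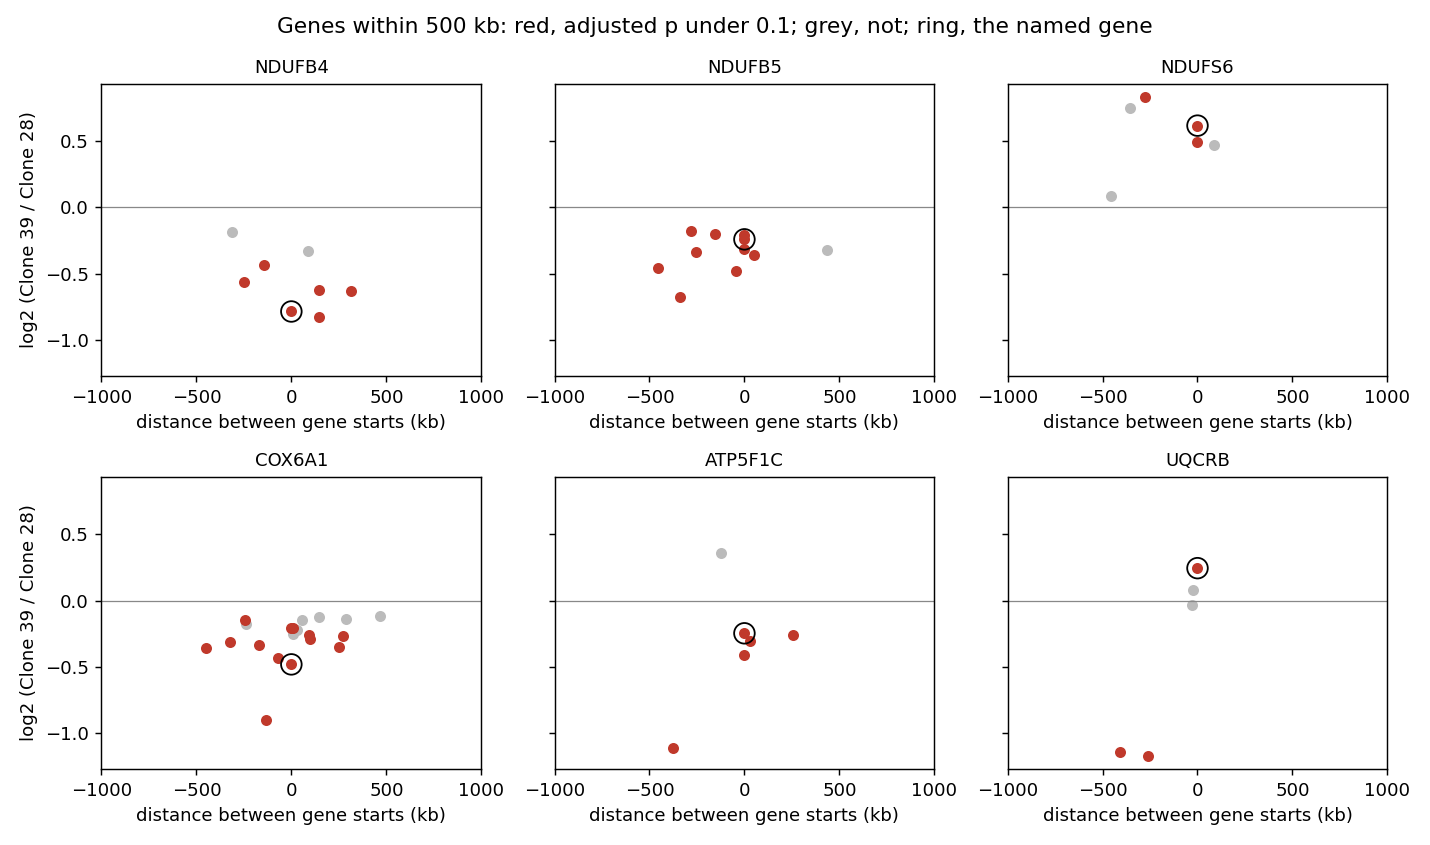
Log2 fold change of Clone 39 over Clone 28 in DMSO (y axis) against the distance in kb between gene starts (x axis), for 6 members (ringed) and the protein-coding genes within 500 kb of each, with those past an adjusted p of 0.1 in red. All 7 neighbours of NDUFB4 lie below 0, and the neighbours of UQCRB do not follow it.

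Assembly factors, which build the complexes but are not part of them, were looked at in the same way in Clone 39 against Clone 28, for the genes of smallest p in each list. On chromosome 3 the complex I factors ACAD9 and TIMMDC1 were at -0.49 and -0.53, with 14 of 14 and 5 of 11 neighbours lower, and the copper chaperone COX17 at -0.54 with 4 of 11, where 9 of the 11 are also neighbours of TIMMDC1. On chromosome 17 TTC19, a complex III factor, was at -0.71 with 12 of 13 neighbours lower, SCO1, a copper chaperone of complex IV, at -0.81 with 2 of 3, COX10, an enzyme of heme A synthesis, at -0.79 with 1 of 2, and ATPAF2, a complex V factor, at -0.75 with 16 of 17. Among all assembly factors, 2 of 19 for complex I were higher and 4 lower, 3 and 2 of 12 for complexes II and III, 4 and 6 of 27 for complex IV and 0 and 1 of 6 for complex V. These counts stand beside 12.4% of all genes higher and 14.3% lower. Some assembly factors differed from their neighbours. UQCC1, a complex III factor, was at 0.64 with 3 of 23 neighbours higher and a median of 0.02, UQCC5, another, at 0.17 with 1 of 26 higher and a median of 0.01, and DMAC1, a complex I factor, at -0.44 with its only neighbour at 0.04.

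The list of transcriptional regulators had 6 of 19 genes higher and 5 lower in Clone 39 than in Clone 28, beside 12.4% and 14.3% of all genes. PPARGC1A, which encodes the coactivator PGC-1α, was at 1.99, 1.89, 1.08 and 0.786 CPM in Clone 28, at 2.15, 2.03, 0.619 and 1.11 CPM in Clone 35 and at 10.2, 12.1, 9.81 and 9.59 CPM in Clone 39. All Clone 39 libraries lay far above the rest, with a log2 fold change of 2.86 (SE 0.294, adjusted p = 2.46e-09, edgeR's quasi-likelihood test) against Clone 28 and 2.87 against Clone 35. In Clones 28 and 35 PPARGC1A had only a few reads a library, near the filter's minimum count of 10. That it passed the filter rests largely on Clone 39, so its p and the size of its fold change carry that limit. PPARGC1B, its relative PGC-1β, was at 0.79, and the receptor gene ESRRA at 0.27, and both passed the test. GABPA at -0.23, YY1 at -0.15, TFAM, which packages and transcribes mitochondrial DNA, at -0.19, and SP1 at -0.29 were lower, while NRF1 at 0.07 did not pass (adjusted p = 0.517, edgeR's quasi-likelihood test). The members as a group had the median of 0.06 given above. Between treatments PPARGC1A did not pass the test in any clone, with means in Clone 39 of 10.42 CPM in DMSO and 10.41 CPM in dTAG-13.

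Further lists were counted in Clone 39 against Clone 28, where 12.4% of all genes were higher and 14.3% lower. Of the 13 mitochondrial genome genes 2 were higher and 0 lower, of 18 tricarboxylic acid cycle genes 3 and 0, and of 12 genes for the mobile carriers ubiquinone and cytochrome c 0 and 1, the latter COQ5, a methyltransferase of ubiquinone synthesis, at -0.29. Mitochondrial ribosomal proteins had 5 of 77 higher and 5 lower. Cytosolic ribosomal proteins had 3 of 83 higher and 14 lower.

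The last comparison used the replicate numbers, which mark dishes collected together. By the test over all 4 numbers 25 of 83 members differed (30.1%), beside 37.4% of all genes. For a direction, numbers 3 and 4 were set against 1 and 2, a split chosen with earlier results of these data known. The DMSO and dTAG-13 dishes of a clone with the same number were collected together, but each library counts separately in the tests and SDs. The p-values of this split thus measure spread between dishes and not between collections. Of the members 23 were higher in numbers 3 and 4 and 8 lower (37.3%), beside 40.9% of all genes, of which 20.7% were higher and 20.2% lower. The median log2 fold change was 0.04 over the members and 0.00 over all genes, and 58 of 83 members were above 0. Under scaling by library totals the split was 33 higher and 5 lower (45.8%), beside 42.3% of all genes. Without the filter on low counts it was 29 and 4 of 89 (37.1%), beside 16.2% of all genes, which then include those of few reads. The directions over all genes are not given for those 2 fits. TRPS1 itself was lower in numbers 3 and 4, at -0.35 (adjusted p = 2.45e-09, edgeR's quasi-likelihood test).

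Short genes rose more often than long ones, among the members as among other genes. Of the 57 members with a span under 20 kb, 19 were higher and 2 lower, with a median log2 fold change of 0.07, while of the 26 longer ones 4 were higher and 6 lower, with a median of 0.00. Over 4798 protein-coding genes under 20 kb, 37.1% were higher and 5.71% lower, with a median of 0.09, and over 10107 longer ones 18.1% and 27.9%, with a median of -0.03. On either side of that span the members had values near those of other protein-coding genes, and the part of gene length in the split was not tested.

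NDUFA8, an accessory subunit of complex I, had the smallest p. Over the 12 libraries of numbers 1 and 2 it ranged from 50.9 to 60.4 CPM with a median of 53.0, and over the 12 of numbers 3 and 4 from 59.97 to 71.7 CPM with a median of 64.1. The groups met only at their edges, and the log2 fold change was 0.28 (SE 0.037, adjusted p = 3.43e-09, edgeR's quasi-likelihood test). The mean was higher in all 6 combinations of clone and treatment. NDUFB7, another accessory subunit, ranged from 9.22 to 15.7 CPM with a median of 12.2 in numbers 1 and 2 and from 13.3 to 18.1 CPM with a median of 15.1 in 3 and 4 (0.36, SE 0.079). COX4I1, a regulatory subunit of complex IV, had medians of 49.9 and 56.8 CPM (0.17). NDUFV1 was at 0.24, with medians of 23.0 and 27.9 CPM.

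**Figure D5:**
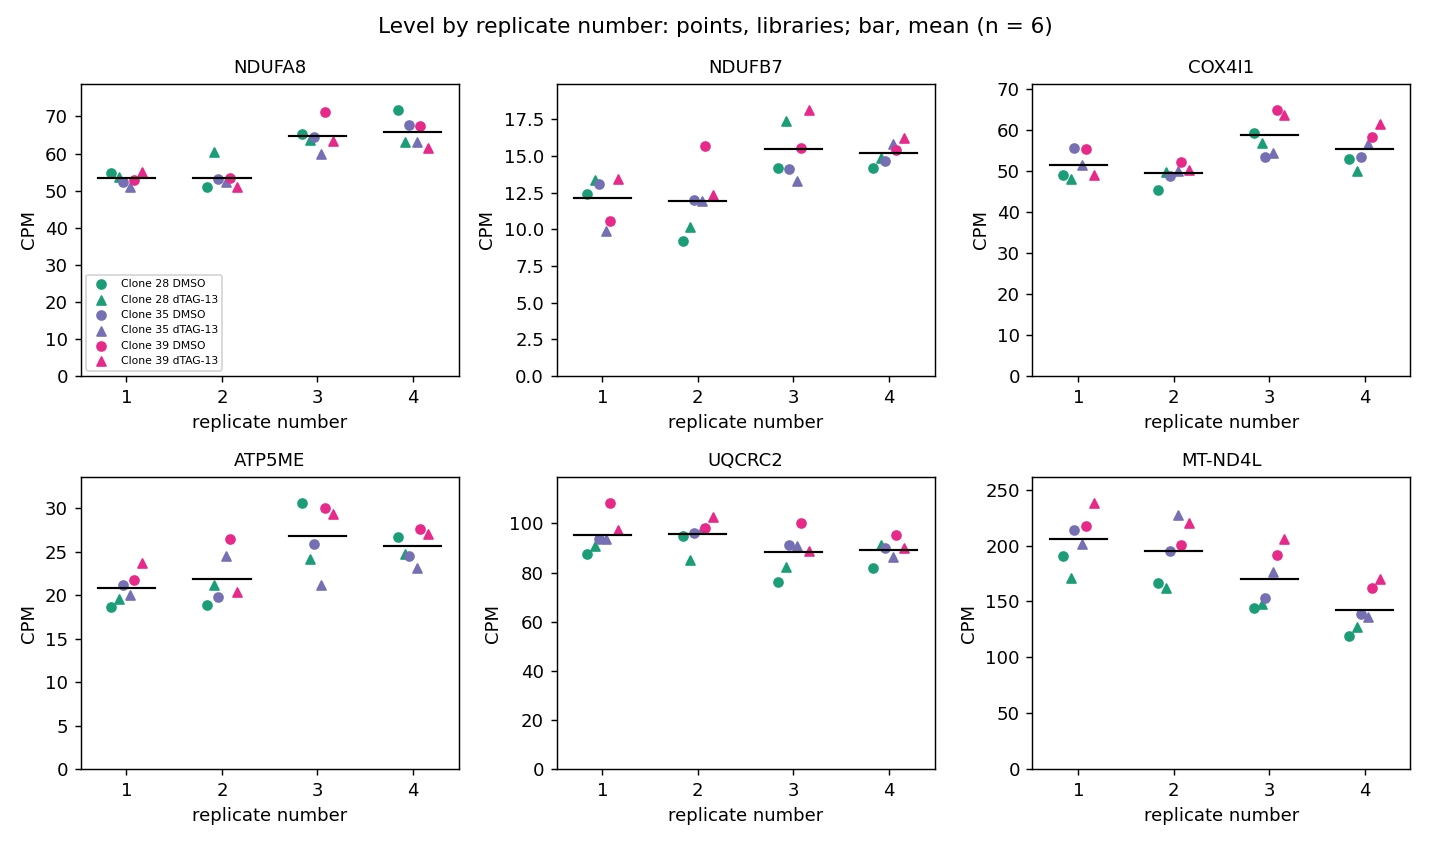
Transcription in CPM of 5 members and of MT-ND4L, a gene of the mitochondrial genome, by replicate number, where points are the 24 libraries and bars are means (n = 6). The numbers mark dishes collected together and not an order in time. NDUFA8 and NDUFB7 lie higher in numbers 3 and 4 than in 1 and 2 with little overlap, and UQCRC2 and MT-ND4L lie lower.

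By complex, 9 members were higher and 4 lower in complex I, 0 and 0 in complex II, 0 and 2 in complex III, 6 and 1 in complex IV and 8 and 1 in complex V. Higher genes of the ATP synthase included the small membrane subunit genes ATP5ME at 0.29 and ATP5MJ at 0.22, the epsilon subunit gene ATP5F1E at 0.18 and the stalk gene ATP5PD at 0.20. Other higher members were NDUFV3, a complex I subunit beside the NADH site, at 0.18, NDUFA2 at 0.16 and COX6C at 0.14. ATP5MF-PTCD1, at 0.11, is a readthrough gene that shares its reads with ATP5MF. The lower ones were NDUFV2, an iron-sulfur core subunit, at -0.12, UQCRC2 at -0.10, NDUFS4 at -0.09, NDUFA5 at -0.17, ATP5F1B at -0.24, COX7B2 at -0.38, UQCRB at -0.09 and NDUFA10 at -0.08. UQCRC2 had medians of 95.6 and 90.2 CPM and was lower in 6 of 6 combinations. The calls of UQCRB and NDUFA10 were lost without any of 8 and 13 single libraries, with adjusted p up to 0.159 and 0.163 by edgeR's quasi-likelihood test.

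Summed over the members, transcription was 3792 ± 61.2 CPM in numbers 1 and 2 and 3886 ± 59.0 CPM in numbers 3 and 4 (SD, n = 12). The mitochondrial genome went the other way. Of its 13 protein-coding genes 10 were lower in numbers 3 and 4 and 0 higher, with a median log2 fold change of -0.23, and their summed level was 6426 ± 815 against 5505 ± 885 CPM (SD, n = 12). The drop in the sum lay mostly in number 4, whose libraries were between 4168 and 5361 CPM. Those of number 3, between 5331 and 7526 CPM, lay within the range of numbers 1 and 2, 5267 to 8105 CPM. The complex I genes MT-ND4L and MT-ND3 were at -0.37 and -0.38 and the cytochrome b gene MT-CYB at -0.31 (adjusted p = 1.59e-15, 2.71e-07 and 2.25e-04, edgeR's quasi-likelihood test). Nuclear and mitochondrial subunits of the same complexes thus had medians of opposite sign in this split, though the difference between the 2 sets was not tested.

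Related nuclear lists were mixed between the replicate numbers, where 20.7% of all genes were higher and 20.2% lower. Short protein-coding genes were more often higher, as given above, and the lists were not split by span. Complex I assembly factors had 7 of 19 higher and 5 lower, TMEM70 at 0.34 and NUBPL, an iron-sulfur carrier, at -0.23 among them. Complex II and III factors had 5 of 12 higher and 0 lower, with UQCC4 at 0.41, complex IV factors 8 and 7 of 27, with HIGD2A at 0.37 and COX10 at -0.26, and complex V factors 0 and 3 of 6. Mobile carrier genes had 6 of 12 higher and 1 lower, with COQ6 of ubiquinone synthesis at 0.24. Regulators had 3 of 19 higher and 6 lower, and the cycle enzymes 4 of 18 higher and 3 lower, with DLST at 0.23 and SUCLG2 at -0.18. Mitochondrial ribosomal proteins had 25 of 77 higher and 9 lower, and cytosolic ribosomal proteins 28 of 83 higher and 16 lower.

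Some members cannot be separated from other annotated genes. A same-strand span was shared with another gene by 36 of 90 members, and with a protein-coding gene by 22. NDUFC2 and its readthrough NDUFC2-KCTD14 share reads in this way. In addition, 50 members have 189 named pseudogenes in the table, and reads from near-identical copies may have been split between them.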

How the data were processed

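PRO-seq was analysed from 24 libraries, 4 for each of 3 clones and 2 treatments, grouped by the sample labels. Per the labels and methods, the authors trimmed adapters, removed duplicates by molecular identifiers, removed ribosomal DNA reads, aligned the rest and deposited counts, whole numbers of reads per gene without normalization. The submitters' processing notes name cutadapt 1.8.1, Bowtie2 2.4.4, SAMtools 1.9 and hg38. The annotation behind the table is not given in the sources used here, so names, spans and neighbours came from GENCODE on hg38. The counts keep strands apart. Where a gene lies inside another on the opposite strand, the inner gene had more counts than the outer in 329 of 2185 pairs (15.1%), against 16 of 2619 (0.611%) on the same strand.

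The 22326 genes kept by filterByExpr on the 6 groups (minimum count 10) were scaled by TMM and tested in R 4.3.3 with edgeR 4.0.16, using robust quasi-likelihood fits and Benjamini-Hochberg adjustment over all genes tested at a threshold of 0.1. Fits were tested on simulated data. limma 3.58.1 was loaded by edgeR, and DESeq2 1.42.0, other scalings, no filter, single clones left out, 1 treatment alone and each library left out were alternatives. Totals of 3226718 to 9575803 counts gave members a standard error between 0.032 and 0.149 on the log2 scale for treatment (median 0.054). Repeat dishes differed by more than counting noise (chi-square per degree of freedom of 1.64 to 13.6 over 36 pairs). Log2 fold changes are edgeR's.

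The labels say that DMSO and dTAG-13 dishes of a number were collected together. Their deviations from the group means correlated at 0.0926 to 0.318 (mean 0.185). Dishes of different numbers were not correlated for comparison, so these values alone do not show the pairing, which is taken from the labels. The members, lists and the split of replicate numbers were chosen with earlier results of these data known. Members named were, in each comparison, those past the threshold (at most 12 with the smallest p in each direction, or the 3 with the smallest p where none passed), the core subunits, isoform pairs, the 3 highest and 3 lowest levels, and at most 3 examples of smallest p from each list. Other genes were named after their values were seen. Levels compared between members were divided by annotated span, while the marker levels and sums are CPM without that division.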

Additional observations from a re-analysis of the deposited data

Results flagged for a closer look

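In 84 combinations of a measure and a group of 4 libraries, 2 held a library set far apart from the other 3. Chance alone gives about 1 in 20, so 2 of 84 is below that rate. NDUFB7 in DMSO-treated Clone 39 was at 10.576 CPM in replicate 1 and at 15.4 to 15.7 CPM in the other replicates. ATP5F1B in DMSO-treated Clone 28 was at 124.802 CPM in replicate 1, with the others between 76.5 and 81.7 CPM. Both libraries carry the same replicate number, and both genes are among those that differed between replicate numbers. The measures checked included genes named for that comparison. An outlying replicate 1 itself enters that comparison, so the overlap is not separate support.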

How the results depend on the processing

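The 0 members called for treatment, in the 3 clones together, in each clone and between clones, stayed at 0 under every alternative run, leave-one-out included. Averaged over both treatments, which adds libraries, the members called numbered 9 in Clone 35 against 28, 30 in Clone 39 against 28 and 20 in Clone 39 against 35, instead of 3, 19 and 7. Those are 10.8%, 36.1% and 24.1% of the members, beside 13.9%, 40.7% and 34.96% of all genes. With the replicate block they numbered 5, 27 and 12 (6.02%, 32.5% and 14.5%, beside 11.9%, 35.2% and 30.5% of all genes), and the block added the calls of ATP5F1B in Clone 35 against 28, NDUFS1 and COX4I1 in Clone 39 against 28 and UQCRFS1 in Clone 39 against 35 among the genes named, and removed 0. Clone 39 against 28 had 12 at a threshold of 0.05 and 12 without the filter on low counts, beside 21.2% and 9.84% of all genes in those fits. Over all 4 replicate numbers, 25 members became 16 by DESeq2, 9 in the dTAG-13 libraries alone, 13 without Clone 28 and 14 without Clone 39, while the share of all genes called went from 37.4% to 26.7%, 20.1%, 24.6% and 27.7%. Numbers 3 and 4 against 1 and 2 had 12 in the dTAG-13 libraries alone and 17 without Clone 39, instead of 31, while all genes went from 40.9% to 23.6% and 33.2%. Fewer libraries enter the fits on part of the data, and the causes of the other shifts were not tested. Leaving out each library gave 2 to 4, 14 to 19 and 5 to 10 for the clone comparisons in the order above, 19 to 26 for the replicate numbers and 25 to 35 for their split. The genes called over the whole table for treatment lay between 66 and 149 on leaving out a library and fell from 123 to 1 without Clone 28 and to 37 without Clone 35 or Clone 39. Per kb of the longest spliced transcript the median level of the members was 23.1 CPM, since introns were left out. Of 146 values of named members with a direction, the 49 that were called kept their sign under the alternatives run. Of those not called, 34 had the other sign under at least 1 alternative, all within 0.095 of 0, among them ATP5F1A for treatment, which ranged from -0.04 to 0.07. Depth limits the genes of few reads, such as COX7B2 with a median of 23.0 counts a library.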
